A study of Mus musculus with 18 samples.

Results

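The metallothioneins Mt1 and Mt2, the zinc importers Slc39a4 and Slc39a5 and the zinc exporters Slc30a1 and Slc30a2 were followed through the cell types of the mouse ileal epithelium. These 6 genes of 32286 in the count tables were selected on earlier results of the same data, namely their levels per cell type, in free RNA and per genotype, so those levels are given here as a description with no test. Mt1 lay between 437 and 709 CPM (UMIs of the gene per 1000000 UMIs) over the kept barcodes of every library. Mt2 was at 33.1 to 45.4 CPM in cells sorted for Lgr5-GFP, at 313 and 235 CPM in the 2 WT libraries of lineage-traced cells, and at 68.5 and 79.4 CPM in the 2 Setdb1-KO libraries of lineage-traced cells. A UMI, or unique molecular identifier, is the tag that marks 1 captured RNA molecule.

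Metallothioneins are small cysteine-rich proteins that bind zinc and copper ions, and their genes are switched on by the zinc-sensing factor MTF1 when free zinc rises. ZIP proteins, encoded by the Slc39a genes, bring zinc into the cytosol, and ZnT proteins, encoded by the Slc30a genes, move it out of the cytosol into vesicles or out of the cell. In the small intestine, Slc39a4 encodes the importer of dietary zinc on the luminal face of enterocytes, Slc39a5 an importer on their basolateral face, Slc30a1 an exporter in the basolateral membrane, and Slc30a2 a transporter that fills secretory vesicles with zinc, as in the granules of Paneth cells.

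The study asked what loss of Setdb1, a histone H3 lysine 9 methyltransferase, does to intestinal stem cells and to the cells they give rise to. GFP-positive ileal cells of C57Bl6 mice aged 60 to 65 days were sorted 5 days after a single injection of tamoxifen at 70 mg/kg and profiled by droplet single-cell RNA-seq, with 2 libraries per group in 4 groups. Lgr5+ WT mice carried Lgr5-GFP-CreERT2 and Lgr5+ Setdb1-KO mice carried Lgr5-GFP-CreERT2/Setdb1lox/lox, so that GFP marked cells that express Lgr5 or still held its GFP. The study attributes mature enterocytes and differentiated secretory cells in the Lgr5+ sort to its gating and to incomplete enrichment. It describes these as co-purifying cells that were not GFP-positive. Whether Setdb1 was deleted in them was not measured here. Lineage-traced WT mice carried Lgr5-GFP-CreERT2/nTnG and lineage-traced Setdb1-KO mice carried Lgr5-GFP-CreERT2/Setdb1lox/lox/nTnG, in which Cre turns on a lasting nuclear GFP in stem cells and all their descendants. All mice therefore carried the Lgr5 knock-in allele, which is expressed in a mosaic of crypts, and all received tamoxifen. The lox sites flank exon 3 of Setdb1, and reads from the 3′ end of the transcript do not measure that deletion: Setdb1 itself was at 11.3 and 9.93 CPM in Lgr5+ WT and 5.32 and 6.21 CPM in Lgr5+ Setdb1-KO, but at 6.11 and 4.21 CPM in lineage-traced WT and 10.4 and 7.85 CPM in the lineage-traced libraries labelled Setdb1-KO. In the Lgr5+ libraries the log2 fold change of Setdb1 was -0.85 (SE 0.14, edgeR adjusted p = 0.047), and in the lineage-traced libraries it was 0.24 (SE 0.23, edgeR adjusted p = 0.60). The transcript was therefore not lower in the lineage-traced libraries labelled Setdb1-KO, which says nothing of the deletion itself. The study reports that PCR on sorted GFP-positive cells verified the deletion in both knockout lines, with and without the lineage reporter.

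Barcodes with 1000 (Lgr5+) or 500 (lineage-traced) to 18000 UMIs and under 5% mitochondrial UMIs were kept, 52015 in all, and were put into classes by the UMIs of fixed marker genes. The Lgr5+ libraries kept 2894 to 11423 barcodes with median depths of 4686 to 9336 UMIs, and the lineage-traced libraries kept 3882 to 10239 barcodes with median depths of 961 to 2085 UMIs. The 9 Paneth marker genes took 34.7 and 38.2% of the free RNA (barcodes ranked 45000 to 90000) in lineage-traced WT, 16.9 and 15.1% in lineage-traced Setdb1-KO and 5.14 to 10.6% in the Lgr5+ libraries. By these markers, 60.6% of the kept barcodes of lineage-traced WT replicate 2 resembled free RNA, against 20.6% in WT replicate 1, 5.92 and 20.1% in the Setdb1-KO libraries and 2.24 to 2.98% in the Lgr5+ libraries, so the main values of the lineage-traced comparison are also given without that library. Enterocyte-classed barcodes made up 3.42 and 5.59% of Lgr5+ WT, 12.2 and 6.80% of Lgr5+ Setdb1-KO, 13.9 and 6.75% of lineage-traced WT, and 1.81 and 1.97% of lineage-traced Setdb1-KO. A protocol label names livers while the tissue label is intestine, and the hepatocyte markers were near 0 in the kept barcodes: Alb was at 0.105 to 1.74 CPM, and of 7 such markers only Ttr exceeded 10 CPM (29.2 to 138 CPM). Pairs of libraries shared 3 to 34 kept cell barcodes.

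Mt1 and Mt2 stand next to each other on chromosome 8 (GRCm38, the build the submitters' processing notes name as mm10; gene positions from RefSeq), Mt2 at chr8:94172618-94173567 and Mt1 at chr8:94178883-94180327, 5315 bases apart, with Mt3 and Mt4 on the far side of Mt2. Slc39a4 lies at chr15:76612383-76618506, Slc39a5 at chr10:128395927-128401276, Slc30a1 at chr1:191906697-191913248 and Slc30a2 at chr4:134343046-134354484. MTF1 binds short metal response elements, and the 7-base cores TGCACNC and TGCGCNC, with N any base, were searched on both strands of windows running from 250 bases before to 50 bases after each RefSeq transcript start. The Mt2 window held 4 matches, the Mt1 window 3, those of Slc30a1 and Slc30a2 2 each, and those of Slc39a5 1 and 0 for its alternative starts. Slc39a4 had no window in the RefSeq table. The transcript starts used for Mt1, Slc30a1 and Slc30a2 lie inside the gene spans given above, and so do all matches in their windows. Over 32851 such windows 25.7% held at least 1 match, 7.11% at least 2 and 1.97% at least 3. The 250 bases before the Mt2 start (chr8:94172368-94172617, plus strand) are shown because Mt2 differed more between the groups than Mt1. The 3 match regions of Mt1 are shown for comparison, as 30-base stretches at chr8:94179055-94179084, chr8:94179080-94179109 and chr8:94179098-94179127 (plus strand), together with the match that lies before the transcript start used for Slc30a1 (chr1:191906727-191906756, plus strand). Capitals mark matches, and the last T of the second Mt1 stretch opens the third match. The fourth Mt2 match begins 5 bases past the start, outside the printed stretch.
Mt2: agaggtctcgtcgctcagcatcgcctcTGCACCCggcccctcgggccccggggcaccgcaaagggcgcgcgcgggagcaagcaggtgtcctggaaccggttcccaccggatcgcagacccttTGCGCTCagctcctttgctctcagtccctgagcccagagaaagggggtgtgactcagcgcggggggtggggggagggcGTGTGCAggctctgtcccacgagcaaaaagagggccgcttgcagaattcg
Mt1, match 1: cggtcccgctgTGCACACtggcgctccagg
Mt1, match 2: ccagggagctcTGCACTCcgcccgaaaagT
Mt1, match 3: cgcccgaaaagTGCGCTCggctctgccaag
Slc30a1: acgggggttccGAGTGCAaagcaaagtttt
A match describes the letters of the sequence and was not tested as a binding site.

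Among the Lgr5+ libraries, Mt1 was highest in the enterocyte class, where it stood at 1146 and 721 CPM in WT and 736 and 936 CPM in Setdb1-KO. It followed at 631 to 642 CPM over the 4 libraries in dividing cells and at 549.5 to 604 CPM in stem cells. The lowest enterocyte library was therefore above every dividing library, and every dividing library above every stem library, by margins smaller than the spread among the enterocyte libraries. Mt1 was at 156 to 283 CPM in goblet cells, 138 to 281 CPM in tuft cells and 68.9 to 243 CPM in enteroendocrine cells, the hormone-secreting cells of the epithelium, and these 3 classes overlapped. The free RNA held 280.1 to 359 CPM of Mt1. In every library the goblet, tuft and enteroendocrine levels lay below the free RNA of the same library, and the levels of the stem, dividing and enterocyte classes above it.

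Mt2 was again highest in enterocytes, then in dividing and in stem cells, at a much lower level. The enterocyte class held 109 and 47.6 CPM in WT and 50.8 and 51.3 CPM in Setdb1-KO, the dividing class 40.5 to 52.5 CPM and the stem class 30.0 to 33.8 CPM. Within each library the enterocyte level was above the dividing level, and the dividing level of the first WT library (52.5 CPM) was above the enterocyte levels of the other 3 libraries. Goblet cells held 6.42 to 20.9 CPM, tuft cells 6.44 to 25.8 CPM and enteroendocrine cells 8.57 to 20.4 CPM, against 10.1 to 19.7 CPM in free RNA. In bulk sums of this kind, fewer cells of a type and less RNA per cell cannot be told apart, which is why levels are given within classes.

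**Figure D1:**
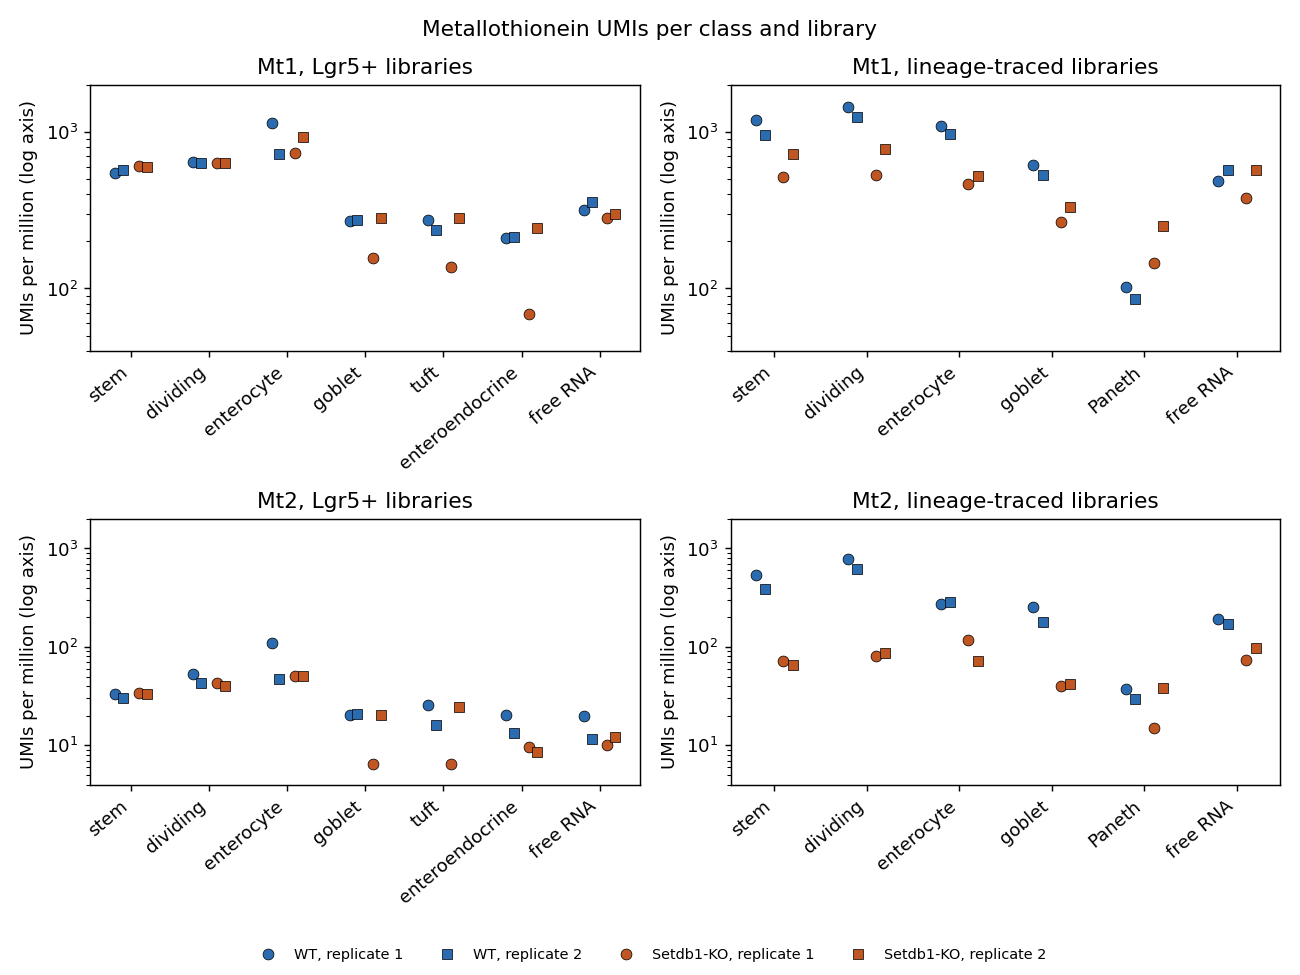
CPM (log axis) of Mt1 and Mt2 in each class and in free RNA, 1 point per library, for the Lgr5+ and the lineage-traced libraries. In the lineage-traced libraries both WT points of Mt2 lie above both Setdb1-KO points in stem (537 and 388 against 71.3 and 65.7 CPM), dividing, enterocyte and goblet classes, and in the Lgr5+ libraries the Mt2 points of the genotypes overlap in the stem, dividing, enterocyte and tuft classes and do not in the goblet (20.4 and 20.9 against 6.42 and 20.2 CPM) and enteroendocrine classes (20.4 and 13.4 against 9.57 and 8.57 CPM).

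In the lineage-traced libraries the highest Mt1 and Mt2 levels were in the dividing class rather than in enterocytes. Mt1 was at 1448 and 1244 CPM in dividing cells of WT and at 528 and 779.8 CPM in those of Setdb1-KO. Stem cells followed with 1199.9 and 953 CPM in WT and 512 and 721 CPM in Setdb1-KO, and enterocytes with 1085 and 972 CPM in WT and 463 and 522 CPM in Setdb1-KO. In goblet cells Mt1 stood at 619 and 535 CPM in WT and 264 and 331 CPM in Setdb1-KO. In these 4 classes both WT libraries were above both Setdb1-KO libraries. Paneth cells, the antimicrobial secretory cells of the crypt base, had the lowest Mt1 of the classes compared, at 103 and 85.4 CPM in WT and 146 and 252 CPM in Setdb1-KO, and here the WT libraries were the lower ones on the CPM scale. That direction depended on the scaling, since the fit with TMM factors (which scale libraries on most genes rather than on the total) gave a log2 fold change of -0.20 (SE 0.30) for Setdb1-KO over WT and library totals gave 1.1.

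Mt2 in lineage-traced dividing cells was at 781 and 615 CPM in WT and at 80.0 and 87.4 CPM in Setdb1-KO. Stem cells held 537 and 388 CPM in WT and 71.3 and 65.7 CPM in Setdb1-KO. Goblet cells held 255 and 179 CPM in WT and 39.8 and 42.1 CPM in Setdb1-KO. These 3 classes showed the widest separation of the genotypes. Enterocytes were closer, with 276 and 283 CPM in WT and 119 and 71.4 CPM in Setdb1-KO. In Paneth cells the genotypes overlapped, with 37.6 and 29.5 CPM in WT and 15.0 and 38.3 CPM in Setdb1-KO. The free RNA held 190 and 169 CPM of Mt2 in WT and 74.3 and 98.0 CPM in Setdb1-KO, so that it differed between genotypes in the same direction as the cells. Free RNA, scaled by the free RNA estimated in each class, would give 3.6 to 22.5% of the Mt2 UMIs of the stem, dividing and enterocyte classes of the lineage-traced libraries and 15.9 to 32.8% of those of the goblet class, and 0.4 to 2.4% in the stem, dividing and enterocyte classes of the Lgr5+ libraries.

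Mt1 and Mt2 are close paralogs that often rise together. Their ratio within a library does not depend on how libraries were scaled, since both counts come from the same sum of UMIs. UMIs of 3′ tags count molecules irrespective of transcript length, although capture can differ between genes, and the ratio was therefore compared between libraries and not read as a ratio of abundances. Over the kept barcodes of the Lgr5+ libraries there were 7.77 and 6.29 Mt2 UMIs per 100 Mt1 UMIs in WT and 6.28 and 6.22 in Setdb1-KO. The lineage-traced libraries had 44.2 and 36.7 in WT and 15.7 and 12.0 in Setdb1-KO. Every lineage-traced library was above every Lgr5+ library, and both lineage-traced WT libraries were above both lineage-traced Setdb1-KO libraries.

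The ratio differed by class in lineage-traced WT. It was 53.9 and 49.4 in dividing cells, 44.7 and 40.7 in stem cells, 41.2 and 33.5 in goblet cells, 36.6 and 34.5 in Paneth cells, and 25.4 and 29.1 in enterocytes, the class in which it was lowest. In lineage-traced Setdb1-KO it was 15.1 and 11.2 in dividing cells, 13.9 and 9.11 in stem cells, 15.0 and 12.7 in goblet cells, 10.3 and 15.2 in Paneth cells, and 25.6 and 13.7 in enterocytes. The first of these enterocyte values rests on 87 barcodes and reached the WT range. Free RNA gave 38.9 and 29.6 in WT and 19.6 and 17.2 in Setdb1-KO.

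**Figure D2:**
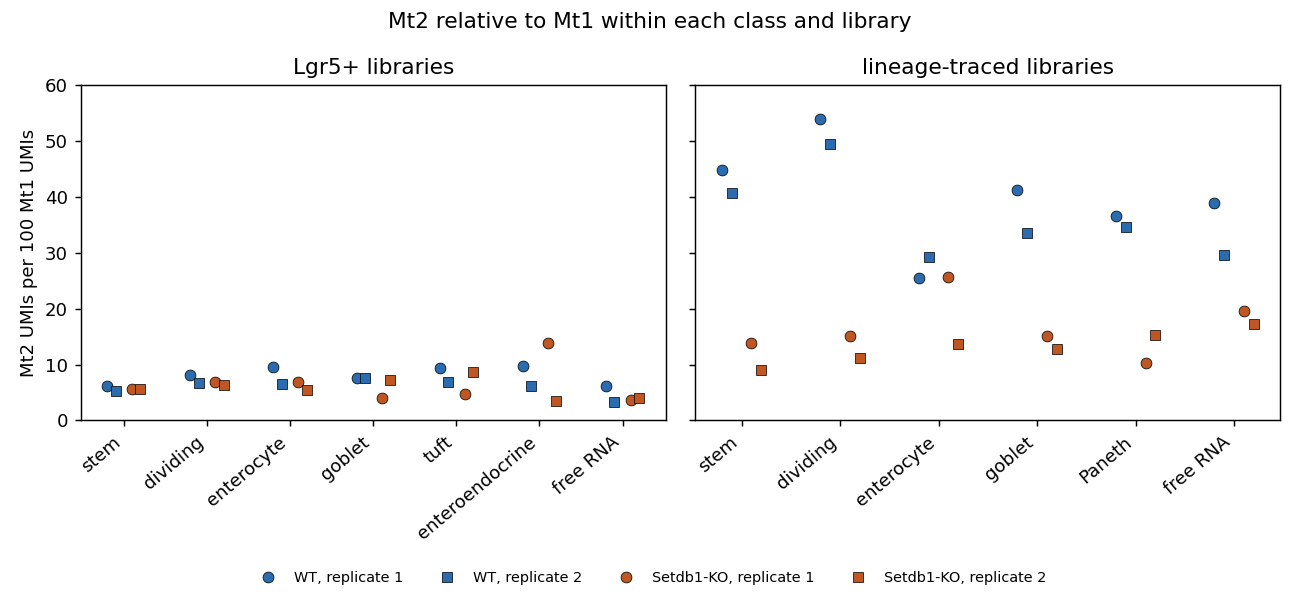
Mt2 UMIs per 100 Mt1 UMIs in each class with 20 or more barcodes in every library of the experiment and in free RNA, 1 point per library. The Lgr5+ libraries stay low in both genotypes (7.77 and 6.29 in WT and 6.28 and 6.22 in Setdb1-KO over all kept barcodes), and lineage-traced WT lies above lineage-traced Setdb1-KO in the plotted classes apart from 1 enterocyte point.

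The WT libraries alone showed how the sorts differ for the metallothioneins. Lineage-traced WT minus Lgr5+ WT, within a class and as a log2 fold change, was 3.95 (SE 0.18) for Mt2 in stem cells, 3.98 (SE 0.17) in dividing cells, 3.53 (SE 0.20) in goblet cells, 3.00 (SE 0.30) in Paneth cells and 1.97 (SE 0.25) in enterocytes. With library totals the Paneth value was 1.26, and the enterocyte value was 2.54 without Lgr5+ WT replicate 1 and 1.45 without Lgr5+ WT replicate 2. For Mt1 it was 1.01 (SE 0.17) in stem cells, 1.17 (SE 0.15) in dividing cells, 1.19 (SE 0.17) in goblet cells and 0.23 (SE 0.19) in enterocytes, where leaving out the same libraries gave 0.50 and -0.07. The Mt2 difference was thus above that of Mt1 in each of these classes. Sort, transgene, sequencing run and depth cannot be told apart in this comparison, and 40.5% of all genes tested in the stem class, 45% in the dividing class, 35.8% in the goblet class and 56.7% in the enterocyte class passed adjusted p 0.05 in it (edgeR).

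Between genotypes, the metallothioneins of the Lgr5+ libraries were compared first. Over all kept barcodes the log2 fold change of Setdb1-KO over WT was -0.05 (SE 0.11) for Mt1 and -0.21 (SE 0.12) for Mt2, and Mt2 in enterocytes had the value -0.57 (SE 0.26). The enterocyte value rested on WT replicate 1 and was 0.03 without it and -1.09 without WT replicate 2. In the other Lgr5+ classes Mt2 lay between -0.85 (SE 0.48) in enteroendocrine cells, which gave 9 to 12 Mt2 UMIs per library, and 0.13 (SE 0.10) in stem cells, with goblet cells at -0.47 (SE 0.36). The goblet value rested on Setdb1-KO replicate 1, being 0.01 without it and -1.67 without Setdb1-KO replicate 2. In the lineage-traced libraries it was -0.79 (SE 0.35) for Mt1 and -2.40 (SE 0.31) for Mt2, a 5.28-fold lower Mt2 in Setdb1-KO. The Mt1 value moved to -0.42 without Setdb1-KO replicate 1 and to -1.30 without Setdb1-KO replicate 2. By class, Mt2 was at -2.99 (SE 0.34) in dividing cells, -2.78 (SE 0.29) in stem cells, -2.46 (SE 0.32) in goblet cells, -1.60 (SE 0.36) in enterocytes and -1.59 (SE 0.36) in Paneth cells, where the CPM of the genotypes overlapped, library totals gave -0.30 and leaving out Setdb1-KO replicate 1 or 2 gave -1.11 or -2.60. Without WT replicate 2, the library that mostly resembled free RNA, the values over all barcodes were -0.82 for Mt1 and -2.55 for Mt2, and those of Mt2 by class -3.18 in dividing, -2.99 in stem, -2.63 in goblet, -1.65 in enterocyte and -1.61 in Paneth cells. Without the barcodes that resembled free RNA in any library, Mt1 and Mt2 over all barcodes were at -0.79 and -2.45. These fits scale libraries by TMM, which compares most genes with each other. Paneth markers made up 33.6 and 31.8% of all kept UMIs in lineage-traced WT and 7.5 and 5.00% in Setdb1-KO, and with plain library totals the values became -0.29 for Mt1 and -1.89 for Mt2 while the median of all genes moved from 0.01 to 0.54. Relative to that median, both scalings place Mt1 and Mt2 below it.

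Slc39a4, the luminal zinc importer, had its highest mean level in enterocytes in both experiments. In the Lgr5+ libraries the enterocyte class held 26.2 and 21.8 CPM in WT and 24.0 and 21.8 CPM in Setdb1-KO, the goblet class 15.5 to 23.1 CPM, the enteroendocrine class 10.5 to 26.5 CPM, and the stem and dividing classes 9.60 to 11.8 CPM. Enterocyte, goblet and enteroendocrine libraries overlapped or nearly did, and all enterocyte libraries lay above all stem and dividing libraries. In the lineage-traced libraries the enterocyte class held 98.5 and 95.6 CPM in WT, from 171 and 54 UMIs, and 35.6 and 18.5 CPM in Setdb1-KO, from 6 and 15 UMIs. The log2 fold change there was -2.0 (SE 0.39), or -2.08 without WT replicate 2, against -0.08 (SE 0.19) in Lgr5+ enterocytes. The enterocyte classes also differed in maturity. Their most advanced barcodes held far less Apoa4, a gene of mature enterocytes, in lineage-traced Setdb1-KO and in Lgr5+ libraries than in lineage-traced WT (values below). What part this had in the enterocyte values of any member was not tested. The study describes mature enterocytes of the Lgr5+ sort as co-purified cells and counts immature enterocytes among its GFP-expressing cells. The enterocyte class used here did not separate them, and the part of this in the values was not tested. Goblet cells of lineage-traced WT held 34.3 and 34.98 CPM against 8.58 and 17.9 CPM in Setdb1-KO (log2 fold change -1.27, SE 0.35, from -0.81 without Setdb1-KO replicate 1 to -2.17 without Setdb1-KO replicate 2). Stem cells held 17.7 and 16.2 CPM against 14.7 and 12.5 CPM, with a log2 fold change of -0.37 (SE 0.36).

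Slc39a5, the basolateral importer, also peaked in enterocytes, but in the lineage-traced enterocytes it differed between genotypes in the other direction. In the Lgr5+ libraries enterocytes held 162 and 145 CPM in WT and 136 and 123 CPM in Setdb1-KO (log2 fold change -0.28, SE 0.11), every one above the 54.7 to 66.2 CPM of stem and 57.7 to 65.8 CPM of dividing cells. Goblet, tuft and enteroendocrine classes held 13.4 to 40.8 CPM, around the free RNA at 25.6 to 27.6 CPM. Lineage-traced enterocytes held 63.9 and 46.0 CPM in WT and 89.1 and 99.8 CPM in Setdb1-KO (log2 fold change 0.87, SE 0.33, with 0.59 without WT replicate 2 and 0.42 without Setdb1-KO replicate 2). This was a higher level in Setdb1-KO where Slc39a4 was lower, in the same barcodes. The difference in Apoa4 between these enterocyte classes applies here as well, and its part was not tested. The lineage-traced WT enterocytes were below the Lgr5+ WT enterocytes by 1.34 on the log2 scale (fitted log2 fold change -1.34, SE 0.19), while Slc39a4 was above by 2.11 (SE 0.20). Over all kept barcodes the Slc39a5 log2 fold change was 0.15 (SE 0.23) in the lineage-traced and -0.12 (SE 0.10) in the Lgr5+ libraries, and without WT replicate 2 the former was -0.04.

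**Figure D3:**
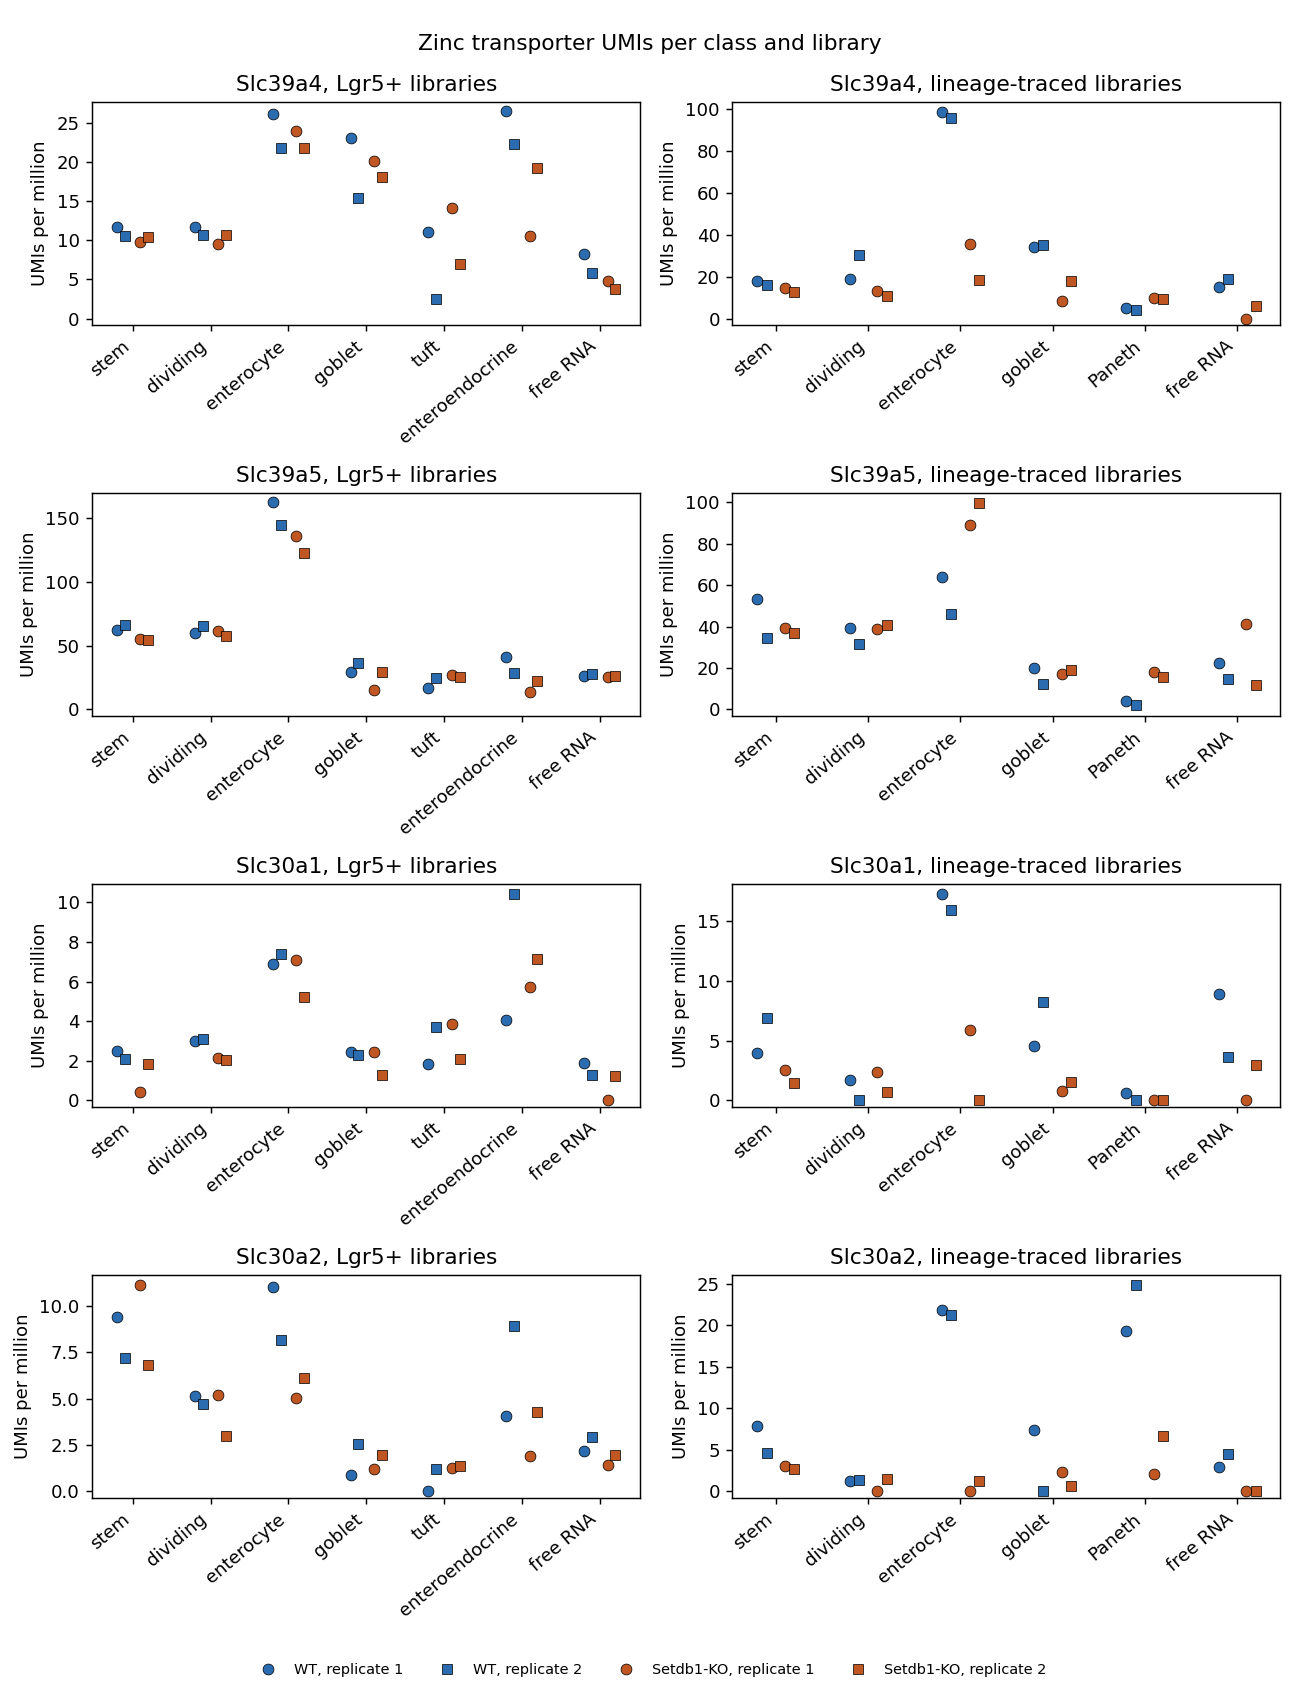
CPM of the 2 importers and the 2 exporters in each class and in free RNA, 1 point per library, with a linear axis from 0 that differs between panels. Slc39a4 in lineage-traced enterocytes stands at 98.5 and 95.6 CPM in WT and 35.6 and 18.5 CPM in Setdb1-KO, and Slc39a5 in the same cells at 63.9 and 46.0 CPM against 89.1 and 99.8 CPM.

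Slc30a1, the exporter that MTF1 also controls, was detected at low levels. Over all kept barcodes it stood at 3.17 and 3.30 CPM in Lgr5+ WT, 2.83 and 2.49 CPM in Lgr5+ Setdb1-KO, 4.39 and 4.08 CPM in lineage-traced WT and 2.67 and 1.20 CPM in lineage-traced Setdb1-KO. Lgr5+ enterocytes held 6.89 and 7.41 CPM in WT and 7.09 and 5.22 CPM in Setdb1-KO, close to the 4.08 to 10.4 CPM of enteroendocrine cells and above the 0.445 to 3.86 CPM of the stem, dividing, goblet and tuft classes. Lineage-traced WT enterocytes held 17.3 and 15.9 CPM from 30 and 9 UMIs, and the Setdb1-KO enterocytes gave 1 and 0 UMIs. That 0 allows up to 3.7 CPM (3 counts of the UMIs in that library's enterocytes, for counting error only), so a lower level in the second library was detectable at this depth. Over all barcodes the log2 fold change was -1.82 (SE 0.32; -1.34 without Setdb1-KO replicate 2) in the lineage-traced and -0.28 (SE 0.17) in the Lgr5+ libraries.

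Slc30a2, the transporter that loads secretory vesicles, had its highest mean among the lineage-traced classes in Paneth cells, but in WT these overlapped the enterocytes. Free RNA was not subtracted from the Paneth class, so that setting cannot rank it. Lineage-traced Paneth cells held 19.3 and 24.8 CPM in WT, from 129 and 32 UMIs, and 2.15 and 6.67 CPM in Setdb1-KO, from 2 and 8 UMIs. The log2 fold change was -3.45 (SE 0.48), -3.19 without WT replicate 2 and -2.17 with library totals. It was -2.87 without Setdb1-KO replicate 1 and -4.60 without Setdb1-KO replicate 2. Paneth markers took 72.5 and 74.3% of the UMIs of these WT barcodes and 50.04 and 51.6% of the Setdb1-KO barcodes, whose median depths were 8624 and 7367 UMIs in WT and 1440.0 and 1577 UMIs in Setdb1-KO, and the part of this in the result was not tested. With the Paneth marker UMIs left out of the total, Slc30a2 stood at 70.2 and 96.8 CPM in WT and 4.30 and 13.8 CPM in Setdb1-KO. Lineage-traced enterocytes held 21.9 and 21.2 CPM in WT, from 38 and 12 UMIs, and gave 0 and 1 UMIs in Setdb1-KO. Among the classes with 20 or more barcodes in every Lgr5+ library, Slc30a2 had its highest mean in stem cells, at 9.40 and 7.22 CPM in WT and 11.1 and 6.84 CPM in Setdb1-KO, which overlapped the enterocytes at 5.06 to 11 CPM. The few Paneth barcodes of the Lgr5+ libraries held more, 13.7 to 49.7 CPM. Over all barcodes Slc30a2 had a log2 fold change of -3.06 (SE 0.25) in the lineage-traced libraries, 12.6 and 9.53 CPM against 1.89 and 1.87 CPM, and of -0.25 (SE 0.15) in the Lgr5+ libraries.

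Over all kept barcodes, both lineage-traced WT libraries were above both Setdb1-KO libraries for Mt2, Slc39a4, Slc30a1 and Slc30a2, below them for Slc39a5, and overlapped them for Mt1. How many of all genes separate the genotypes in this way was not counted, so the order of the libraries is given as a description only. The rule that chose the members used this contrast, and 8.73% of all genes tested in it passed adjusted p 0.05 (edgeR), 7.19% as lower in Setdb1-KO; in the Lgr5+ libraries 1.34% passed. With plain library totals the log2 fold changes were -0.81 for Slc39a4, 0.67 for Slc39a5, -1.28 for Slc30a1 and -2.57 for Slc30a2, each shifted by about the median of all genes. Without WT replicate 2 they were -1.39 for Slc39a4, -0.04 for Slc39a5, -1.82 for Slc30a1 and -3.19 for Slc30a2. The difference between the lineage-traced and the Lgr5+ genotype effects was fitted in 1 model of the 8 libraries, in which 7.58% of all genes tested passed adjusted p 0.05 (edgeR), and was -2.80 (SE 0.28) for Slc30a2, -2.17 (SE 0.31) for Mt2, -1.54 (SE 0.37) for Slc30a1, -1.29 (SE 0.20) for Slc39a4, -0.73 (SE 0.39) for Mt1 and 0.28 (SE 0.25) for Slc39a5. In lineage-traced WT replicate 1, enterocyte-classed barcodes held 171 of 487 Slc39a4 UMIs and Paneth-classed barcodes 129 of 241 Slc30a2 UMIs, and all 10 enterocyte markers and all 9 Paneth markers were lower in lineage-traced Setdb1-KO (median log2 fold changes -2.73 and -2.68, each marker past adjusted p 0.05, edgeR).

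**Figure D4:**
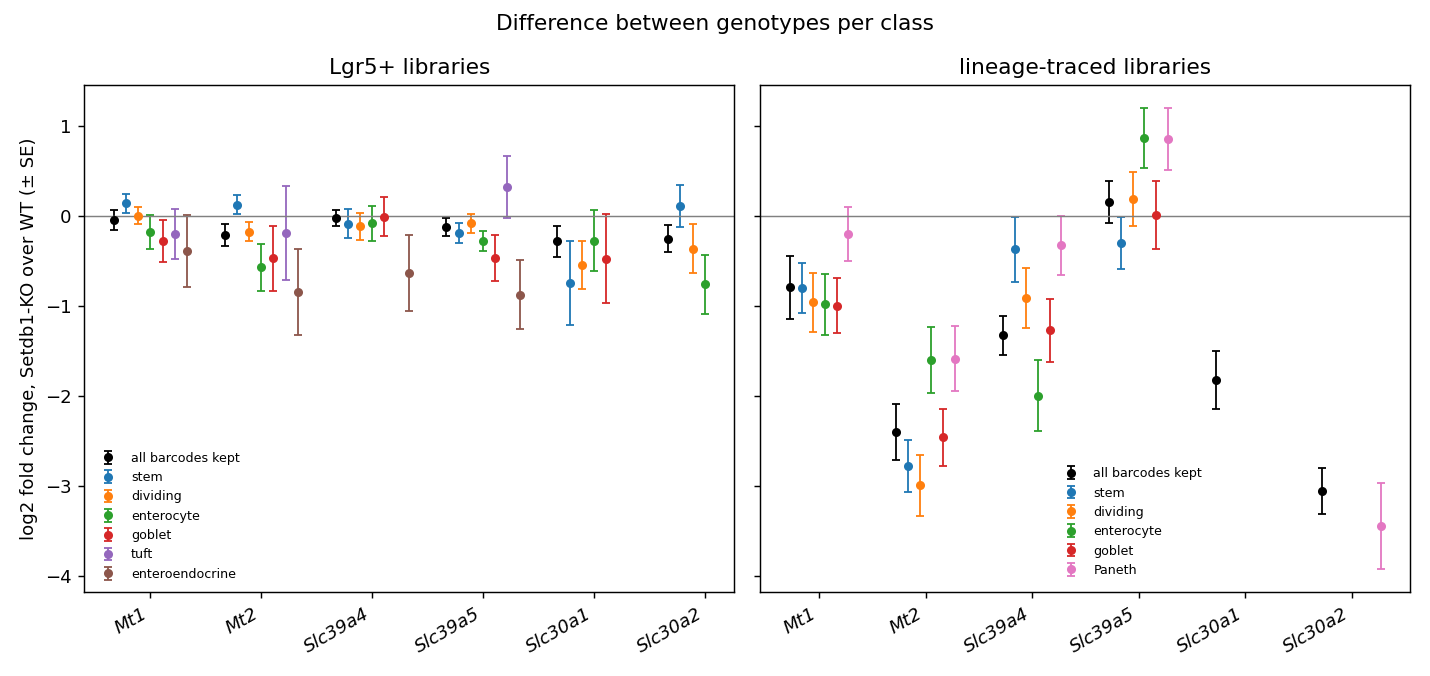
Log2 fold change of Setdb1-KO over WT with its standard error for the 6 members, over all kept barcodes and per class, where the gene passed the filter on low counts. Slc30a1 and Slc30a2 in lineage-traced enterocytes are left out, since each Setdb1-KO library had 0 or 1 UMI, and the lineage-traced values run from -3.45 for Slc30a2 in Paneth cells to 0.87 for Slc39a5 in enterocytes, with Mt2 at -2.99 in dividing cells.

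An order of enterocytes by villus transcripts was not used to choose the members, so it could be tested. It stands in for position along the villus, which was not measured. The study isolated its cells from a fraction enriched for crypts. Enterocyte-classed barcodes were ordered within each library by the share of villus-top transcripts (Ada, Apoa4, Slc28a2 and others) among villus-top and villus-bottom transcripts (Reg3b, Reg3g and others), and were cut into 3 equal parts, of which the top part was compared with the bottom part with the library as a block. In lineage-traced WT, Slc39a4 went from 58.3 CPM at the bottom to 174 CPM at the top in the first library and from 81.6 to 162 CPM in the second. In lineage-traced Setdb1-KO it went from 29.9 to 40.5 CPM and from 24.0 to 17.0 CPM, on 1 to 6 UMIs per part. Over the 4 libraries the log2 fold change was 1.1 (SE 0.39, edgeR adjusted p = 0.038), and 13.6% of the 3129 genes tested passed. In the WT libraries alone it was 1.24 (SE 0.30, edgeR adjusted p = 0.00027), in a fit in which 42.4% of the 3626 genes tested passed. The call was lost with library totals (1.06, edgeR adjusted p = 0.055), without WT replicate 1 (0.60, edgeR adjusted p = 1.00), without WT replicate 2 (1.11, edgeR adjusted p = 0.44) and without Setdb1-KO replicate 1 (1.03, edgeR adjusted p = 0.056).

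Mt1 and Mt2 ran opposite to Slc39a4 along this order in lineage-traced WT. Mt1 went from 1325 to 676 CPM and from 1193 to 571 CPM from bottom to top, and Mt2 from 365 to 189 CPM and from 382 to 139 CPM. In Setdb1-KO, Mt1 went from 568 to 419 CPM and from 529 to 535 CPM, and Mt2 from 269 to 94.6 CPM and from 64.1 to 78.4 CPM, so the first library was lower at the top and the second was not. Over the 4 libraries neither passed the threshold (Mt1 log2 fold change -0.58, SE 0.30, edgeR adjusted p = 0.20, and Mt2 -0.83, SE 0.31, edgeR adjusted p = 0.055). In the WT libraries alone both passed, beside 42.4% of all genes tested there (Mt1 -1.14, SE 0.26, edgeR adjusted p = 0.00012, and Mt2 -1.25, SE 0.25, edgeR adjusted p = 8.1e-06). Mt2 also passed without Setdb1-KO replicate 2 (-1.19, edgeR adjusted p = 0.0098), where 20.6% of genes did. Whether the course along the villus differed between genotypes was not tested, and the top parts of Setdb1-KO were less advanced by the axis gene Apoa4, a chylomicron protein of mature enterocytes, at 216 and 457 CPM against 6199 and 5947 CPM in WT.

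In Lgr5+ enterocytes none of 5 members tested passed between the top and the bottom part with edgeR (2 at an unadjusted p under 0.05), where 7.34% of the 6675 genes tested did. Mt1 had a log2 fold change of 0.22 (SE 0.07, edgeR adjusted p = 0.071), Slc39a4 of 0.38 (SE 0.25, edgeR adjusted p = 0.46), Slc39a5 of 0.15 (SE 0.11, edgeR adjusted p = 0.52), Slc30a2 of 0.89 (SE 0.42, edgeR adjusted p = 0.26) and Mt2 of 0.01 (SE 0.15, edgeR adjusted p = 0.98). Without Lgr5+ WT replicate 2 Mt1 passed, with 0.30 and an edgeR adjusted p of 0.010, as did 6.99% of genes. The top part of these barcodes reached 244 to 526 CPM of Apoa4. Slc39a5 in lineage-traced enterocytes did not pass either (-0.25, SE 0.38, edgeR adjusted p = 0.74).

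**Figure D5:**
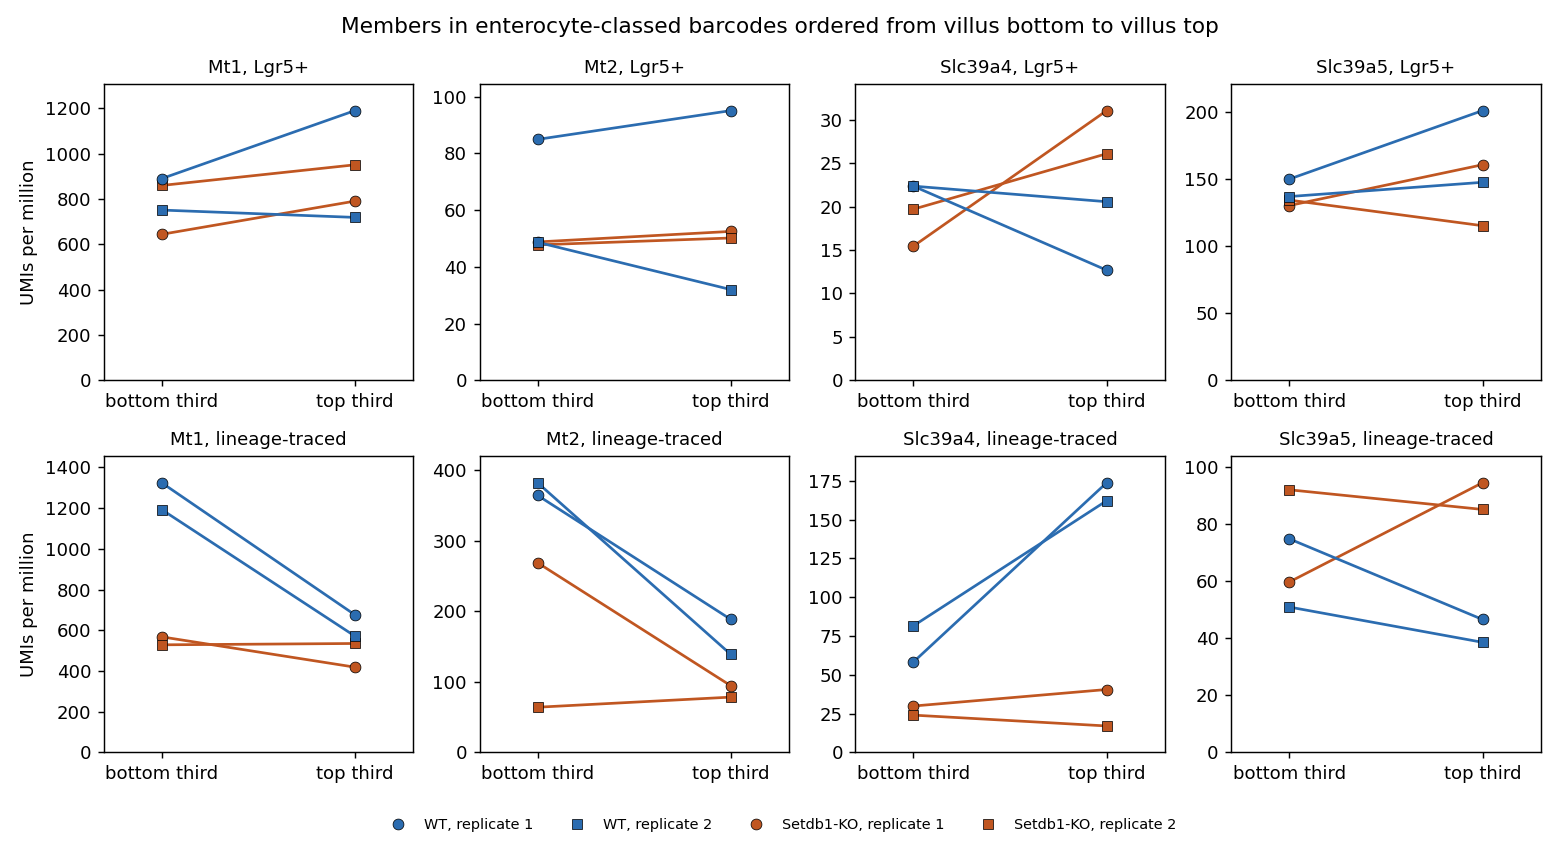
CPM of Mt1, Mt2, Slc39a4 and Slc39a5 in the bottom and the top part of enterocyte-classed barcodes, 1 line per library, with linear axes from 0 that differ between panels. In lineage-traced WT both lines of Mt1 and Mt2 go down and both lines of Slc39a4 go up, from 58.3 to 174 CPM and from 81.6 to 162 CPM.

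The genes whose levels ran most like those of the members were sought over 55 class-by-library sums and 6964 genes, by Pearson's r of log2(CPM + 10), given as a description since the sums share libraries and depth. Mt1 ran most like Cd302 (r = 0.85), Cnih4 (0.83), Tstd1, Sptssa and Uqcrq (0.80 each). Mt2 ran most like Mt1 (0.79), then Cyp3a11, a drug-metabolising cytochrome of enterocytes (0.74), Muc3, a membrane mucin (0.72), Shc1 (0.72) and 2310010J17Rik (0.71). Slc39a4 ran most like the detoxifying enzymes Ugt2b34 (0.75), Ces2a (0.74), Gsta1 (0.73) and Cyp4v3 (0.72) and like Sec23a (0.73). Slc39a5 had the closest companions, with Ccl25, the chemokine of small intestinal enterocytes (0.90), Otc, a urea cycle enzyme (0.89), Hadh (0.86), Pnp2 (0.86) and Tkfc (0.85). The lists of the importers held no common gene. Lists of 5 among 6964 genes can differ wholly because they are short, so this does not measure how alike the importers ran.

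The other zinc handling genes were counted in both genotype comparisons. Of 24 listed genes, 20 were tested in the Lgr5+ libraries, where none was higher and 1 lower in Setdb1-KO, beside 1.34% of all genes called in either direction: Slc39a8, a plasma membrane importer, at 9.89 and 8.58 CPM in WT and 5.47 and 4.78 CPM in Setdb1-KO (log2 fold change -0.84, SE 0.12, edgeR adjusted p = 0.032). Of 19 tested in the lineage-traced libraries, none was higher and 2 were lower, near the 7.19% of all genes called lower there, with a median log2 fold change of -0.36 against 0.01 for all genes. Slc30a10, a manganese exporter of the zinc transporter family, was at 17.4 and 14.5 CPM in WT and 0.667 and 0.262 CPM in Setdb1-KO (log2 fold change -5.86, SE 0.34, edgeR adjusted p = 3.6e-07), and it rose from villus bottom to top in the lineage-traced (2.92, SE 0.45, edgeR adjusted p = 8.9e-09) and the Lgr5+ enterocytes (2.59, SE 0.64, edgeR adjusted p = 0.013). Slc39a14, an importer of zinc, iron and manganese, was at 21.0 and 18.6 CPM in WT and 18.0 and 11.4 CPM in Setdb1-KO (-1.0, SE 0.23, edgeR adjusted p = 0.015). Of the neighbours on chromosome 8, named after their values were seen, Mt3 was at 3.51 to 5.30 CPM in the Lgr5+ and 26.1 to 36.7 CPM in the lineage-traced libraries, and Mt4 stayed at 0.130 to 0.667 CPM. Mtf1, the zinc sensor, was at 12.6 to 16.5 CPM in the Lgr5+ and 5.69 to 7.33 CPM in the lineage-traced libraries.

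Zinc-dependent enzymes and zinc-binding proteins of the epithelium were lower in lineage-traced Setdb1-KO for 13 of 22 genes, against 7.19% of all genes, with none higher and a median log2 fold change of -1.98. They included the brush border alkaline phosphatases Alpi (96.0 and 92.2 CPM in WT and 7.23 and 4.86 CPM in Setdb1-KO) and Akp3 (35.3 and 37.4 against 0.445 and 0.262 CPM), adenosine deaminase, Ada (102 and 97.4 against 3.34 and 3.22 CPM), and guanine deaminase, Gda (73.4 and 59.5 against 3.22 and 1.53 CPM). Alpi is also an enterocyte marker and Ada a villus-top gene here, and 10 of 10 enterocyte markers were lower, so the list and the share of enterocytes cannot be told apart over all barcodes. In the Lgr5+ libraries, where 1.34% of all genes passed, 21 of this list were tested, and 1 was higher (Adh1, an alcohol dehydrogenase, 1.03, SE 0.13, edgeR adjusted p = 0.022) and 1 lower (Adh6a, -2.63, SE 0.08, edgeR adjusted p = 0.00011).

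Lists that stand for other inducers of metallothionein genes were counted in the same way, beside the 7.19% of all genes called lower in the lineage-traced comparison and the 1.34% called in either direction in the Lgr5+ comparison. Of the copper and iron handling genes none of 20 passed in the Lgr5+ libraries with edgeR (2 at an unadjusted p under 0.05, and 2 passed with DESeq2), and 6 of 19 were lower in lineage-traced Setdb1-KO, among them the iron exporter Slc40a1 (38.3 and 29.9 against 3.00 and 2.51 CPM), the ferric reductase Cybrd1 (log2 fold change -3.20), the iron importer Slc11a2 (-1.5) and the ferroxidase Heph (-1.25). From villus bottom to top of lineage-traced WT enterocytes, Slc40a1 went from 53.3 to 596 CPM and from 51.0 to 502 CPM, and the enterocyte markers were lower as well, so this list and the share of mature enterocytes cannot be told apart over all barcodes. Of the NRF2 target and glutathione genes, 1 of 14 was higher in the Lgr5+ libraries (Nqo1, a quinone reductase, 0.58, SE 0.08, edgeR adjusted p = 0.032), and 4 of 13 were lower in the lineage-traced ones (Srxn1 -2.43, Osgin1 -1.68, Nqo1 -1.39 and Gclc -0.92). Of the glucocorticoid response genes none of 12 passed in the Lgr5+ libraries with edgeR (5 at an unadjusted p under 0.05, and 0 passed with DESeq2) and 2 of 12 were lower in the lineage-traced ones (Sgk1 -1.67 and Dusp1 -1.10). Of the genes that respond to dissociation and heat, none of 18 passed in the Lgr5+ libraries with edgeR (2 at an unadjusted p under 0.05, and 1 passed with DESeq2) and 1 of 15 was lower in the lineage-traced ones (Zfp36, -0.99), a share near that of all genes. The medians of these 4 lists in the lineage-traced libraries were -0.37, -0.56, -0.37 and -0.35, against 0.01 for all genes. On library totals the NRF2 list summed to 2563 and 2866 CPM in WT and 3327 and 4236 CPM in Setdb1-KO. The glucocorticoid and dissociation sums were also higher in both Setdb1-KO libraries, and so was the median of all genes on that scale. The share of mature enterocytes cannot be told apart from these lists either.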

How the data were processed

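The 8 single-cell libraries were analysed from raw UMI counts per gene and barcode, deposited by the authors for all barcodes after alignment and counting with Cell Ranger 6.1.1 against mm10, per the labels and the study's methods; the counts were not normalised, filtered or corrected for free RNA. Sorted cells had been stored frozen in DMSO before capture. How reads matching more than 1 gene were split is not given in the sources used here. Total RNA-seq, CUT&Tag (titled ChIP in the labels) and single-cell accessibility samples were not analysed here.

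Here barcodes were kept at 1000 (Lgr5+) or 500 (lineage-traced) to 18000 UMIs and under 5% mitochondrial UMIs. A barcode was put in 1 of 8 classes when the UMIs of that class's markers passed a limit per 10000 UMIs, set after the marker distributions were seen: 16 for stem, dividing and tuft, 32 for T cell, 64 for enteroendocrine, 100 for enterocyte, 500 for goblet and 1000 for Paneth cells, the last also 1.5 times the share in free RNA. The Paneth limit therefore differed between libraries and was highest in lineage-traced WT. Barcodes passing for competing classes stayed unclassed, and no doublet caller was run. Barcodes outside the Paneth class also stayed unclassed when their Paneth markers reached 0.5 times the share in free RNA. Classes with 20 or more barcodes in every library were compared. For 4.51 to 21.3% of the kept barcodes of a library, the best score among classes other than stem and dividing lay near its limit. That band was narrower than a factor of 2, and the stem and dividing limits were not counted. CPM are UMIs per 1000000 UMIs of the same sum.

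UMIs summed per library were tested with edgeR 4.0.16 (TMM, filterByExpr, quasi-likelihood F test, Benjamini-Hochberg over all genes tested, threshold 0.05) in R 4.3.3, after the code was tested on simulated data; SE is the log2 fold change divided by the square root of F. DESeq2 1.42.0 was an alternative. The study calls the Lgr5+ libraries independent biological replicates and states at least 2 biological replicates for its single-cell RNA-seq as a whole. With 2 libraries per group, every spread rests on few samples. The p-values measure only the spread between those libraries, and counting limits cover counting error only. The members and lists were chosen with earlier results of these data known. Named genes were the 6 members, Setdb1, up to 4 genes per list and experiment with the smallest adjusted p under 0.05, every zinc handling gene past it, and the 5 genes most like each member of at least 10 CPM.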

Additional observations from a re-analysis of the deposited data

Results flagged for a closer look

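In the model of all 8 libraries, the genotype effect differed between the lineage-traced and the Lgr5+ experiment (interaction past edgeR adjusted p 0.05) for 7.58% of the 13781 genes tested. The genes named here had been picked by their genotype calls in 1 of the experiments, which favours such a difference, so those that passed are given as values only, as the lineage-traced minus the Lgr5+ log2 fold change. Among zinc handling genes these were Slc30a10 (-5.72) and Slc39a14 (-0.99). Among the zinc enzymes they were Akp3 (-6.85), Gda (-5.52), Alpi (-5.15), Ada (-5.11) and Adh1 (-0.88). Among the iron genes they were Cybrd1 (-4.29), Slc40a1 (-3.99), Slc11a2 (-1.46) and Heph (-1.32). Among the NRF2 targets they were Srxn1 (-2.52), Osgin1 (-2.01), Nqo1 (-1.956) and Gclc (-1.02). Of the glucocorticoid and dissociation genes, Sgk1 (-1.78) and Zfp36 (-1.11) differed. Of the villus-top genes, Apoa4 (-7.01), Creb3l3 (-3.73) and Slc28a2 (-2.20) differed. Setdb1 itself differed in the other direction (1.09), being lower in Setdb1-KO in the Lgr5+ libraries and not in the lineage-traced ones. The experiments also differ in reporter, sequencing depth and free RNA, which cannot be told apart from the sort.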

How the results depend on the processing

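With 2 libraries per group, counts of genes past the threshold moved widely, and the cause was not tested. In the Lgr5+ libraries over all barcodes, 183 genes passed; 486 did with DESeq2, 363 with library totals, 466 with totals without Paneth markers, 35 with no filter on low counts, 51 with a replicate block and 65 to 527 with 1 library left out (65 without WT 1, 79 without WT 2, 527 without Setdb1-KO 2). In the lineage-traced libraries 1066 passed (188 higher and 878 lower in Setdb1-KO); 667 did with DESeq2, 3807 with library totals (3316 higher and 491 lower), 2579 with a replicate block and 586 to 2449 with 1 library left out (586 without WT 1, 2449 without Setdb1-KO 1). Summed over classes, 298 passed in the Lgr5+ libraries, 1796 with no filter, 936 with a replicate block and 451 to 1401 with 1 library left out. The lineage-traced classes gave 1873, 4538 with library totals and 566 to 3312 with 1 library left out. The WT comparison of sorts gave 18135, and 10336 to 18141 with 1 library left out. Along the villus, 490 passed in Lgr5+ enterocytes, 243 with 2 parts in place of 3, 29 in WT alone and 211 to 493 with 1 library left out; 427 passed in lineage-traced enterocytes, 1537 in WT alone and 38 to 488 with 1 library left out. Same-numbered libraries are not stated to share a batch, and their deviations correlated at 0.012 (Lgr5+) and 0.31 (lineage-traced), so the numbers were not taken to pair libraries.

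For the members, the lineage-traced genotype values of Mt2, Slc39a4, Slc30a1 and Slc30a2 over all barcodes stayed negative in every alternative run (Mt2 -2.67 to -1.89). Mt1 ranged from -1.30 to -0.29 and Slc39a5 from -0.04 to 0.67. In the comparison of WT sorts, library totals turned Mt1 (-0.85) and Slc30a2 (-0.46) in Paneth cells negative. The class with the highest level stayed the same for at least 5 of the 6 members under each alternative. Free RNA subtraction gave no value for the Paneth class, so that alternative ranked the other classes only. Slc30a2 along the lineage-traced villus could be fitted with 2 parts only (1.77, SE 0.54, edgeR adjusted p = 0.025). Median depths of 961 to 2085 UMIs leave Slc30a1 and Slc30a2 with few UMIs per class in the lineage-traced libraries. Alternatives added after seeing the data were the removal of barcodes that resemble free RNA, a stricter limit for that in the classes, free RNA subtraction in the WT comparison of sorts, and totals without Paneth markers.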
